A study of Homo sapiens with 46 samples.

Results

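Footprints of translating ribosomes were compared between HEK293 Flp-In T-REx cells given ASCC3 siRNA and cells given control siRNA, in 7 of the 46 libraries of the study. HEK293 is an established human embryonic kidney line, and Flp-In T-REx is a derivative of it made for inducible transgenes. The 7 libraries were chosen by their labels. They are 2 monosome libraries of the ASCC3 knockdown, 2 monosome libraries of the control, 1 disome library of the ASCC3 knockdown and 2 disome libraries of the control. A monosome footprint is the stretch of mRNA that a ribosome shields from RNase I, and a disome footprint is the longer stretch shielded by a pair of touching ribosomes. All cells of the knockdown arm, the controls included, were transfected with siRNA at 75 nM, kept for 72 h, transfected again at 30 nM and kept for 24 h. The labels name no siRNA sequence, do not say what the control siRNA was, and leave unstated whether replicates were grown as separate cultures. The p-values below therefore reflect library-to-library spread, part of which may be technical. Cells given 4EHP siRNA and cells given ASCC3 and 4EHP siRNA, with 8 footprint libraries, provided a second background for the same knockdown, and 8 RNA-seq libraries gave RNA levels for the same 4 siRNA conditions. The 3 libraries of the ABCE1 knockdown entered the fits only as part of the shared estimate of spread.

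ASCC3 is the helicase subunit of the activating signal cointegrator complex. When a ribosome stalls and the next ribosome runs into it, the ubiquitin ligase ZNF598 marks the collided pair, and the complex that holds ASCC3 pulls the leading ribosome apart so that the mRNA can be cleared. 4EHP is a cap-binding protein that, together with GIGYF2, blocks further initiation on mRNAs where ribosomes have collided. ABCE1 splits ribosomes after normal termination.

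Counts are per transcript. The files pair no transcript with a gene name, and 0 transcript identifiers matched the reference tables, so transcripts are given by Ensembl identifier and listed coding length, and the gene lists and cell type markers prepared for this comparison could not be applied. For the same reason the ASCC3 transcript itself was not identified, the knockdown could not be checked on its target, and a transcript that fell in every library with ASCC3 siRNA may be that target. Isoforms that share reads were joined, which left 54011 representative transcripts of 97742 with any count. Several may still belong to 1 gene, so counts of transcripts below are not counts of genes.

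The control monosome libraries held 6697824 and 6073020 counts, against 1541450 and 4717798 for ASCC3 replicates 1 and 2. The disome libraries held 1477462 and 776733 counts in the control and 513330 in the lone ASCC3 library. ASCC3 replicate 1 was thus the shallowest of the 10 monosome libraries. The log2 difference between replicates across 10443 well-covered transcripts had an SD of 0.271 for ASCC3 and 0.154 for the control. The difference between the ASCC3 replicates followed coding length (Spearman 0.23 across transcripts), whereas the fold change of ASCC3 over control did not (Spearman 0.02), both given as descriptions. Well covered means here an average log2 CPM of at least 4, where CPM is the TMM-normalised count relative to library size, in the unit edgeR reports.

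**Figure D1:**
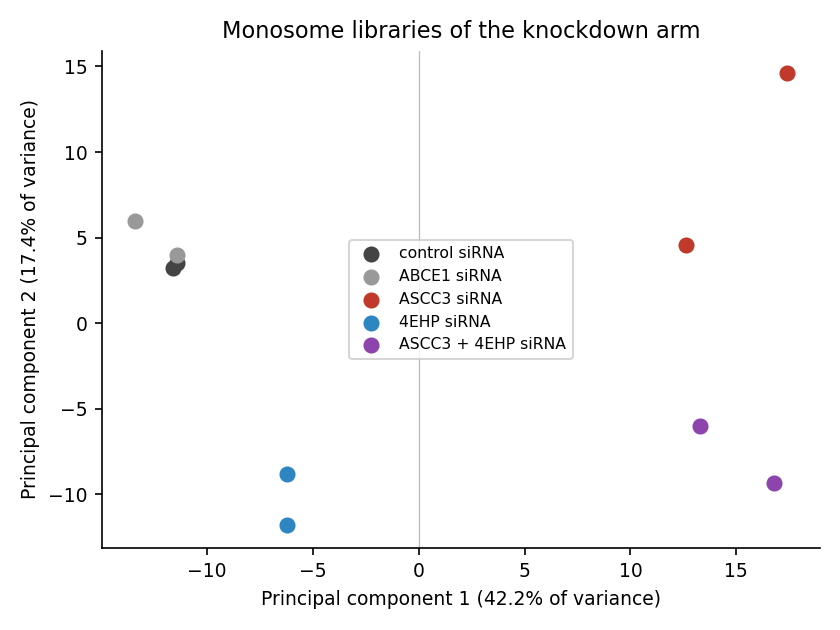
Principal components of the 10 monosome libraries of the knockdown arm, with component 1 (42.2% of variance) on the x axis and component 2 (17.4%) on the y axis. Each point is a library. The 4 libraries with ASCC3 siRNA lie at 12.6 to 17.4 on component 1, and the 6 without it lie at -13.4 to -6.2.

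The first comparison asked which transcripts gained or lost monosome footprints after ASCC3 siRNA. Of 28386 transcripts tested, 637 rose (2.24%) and 963 fell (3.39%), 5.64% in all, at an edgeR quasi-likelihood adjusted p under 0.05. Most changes were small. The median log2 fold change was 0.54 among the rises and -0.61 among the falls, against 0.00 for all transcripts tested. At least 2-fold changes numbered 107 rises and 207 falls, and at least 3-fold changes numbered 39 rises and 61 falls. The largest rise was 3.33 and the largest fall -3.31 on the log2 scale. The called transcripts lay in 378 separate stretches of the transcript list for the rises and 481 for the falls, where transcripts up to 40 lines apart were put in the same stretch.

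The share of transcripts called grew with abundance while the size of the called changes shrank. The medians below are over called transcripts only. Smaller changes pass the threshold at higher counts, so neither trend describes the response by itself. Among the 589 transcripts with an average log2 CPM of 8 or more, 96 rose (16.3%) and 67 fell (11.4%), with medians of 0.28 and -0.35. Among the 7974 transcripts under 2, 51 rose (0.64%) and 28 fell (0.351%), with medians of 1.68 and -2.03. Between 4 and 6, falls were more frequent than rises, with 416 falls (5.70%) and 220 rises (3.01%) among 7303 transcripts.

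**Figure D2:**
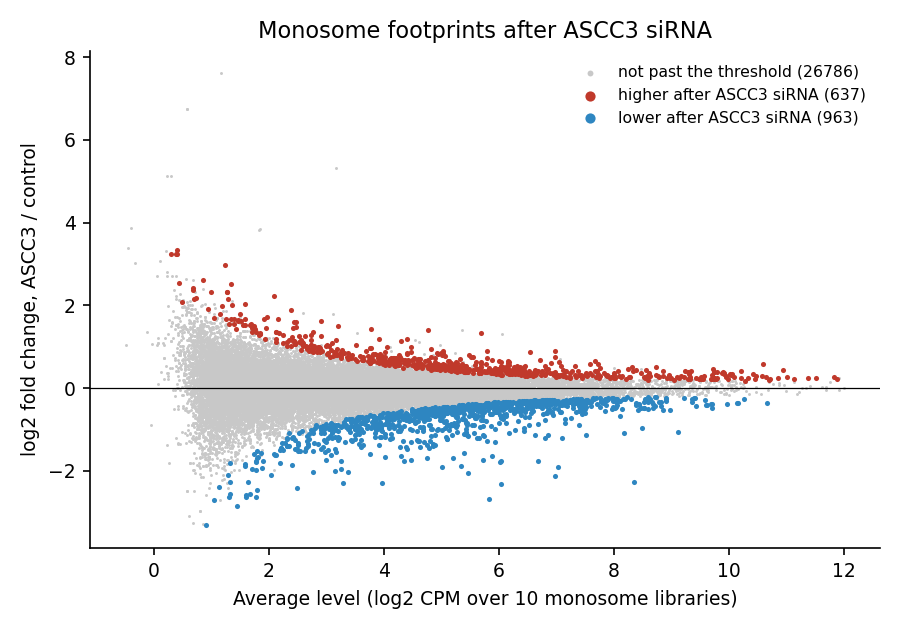
Log2 fold change of monosome footprints, ASCC3 siRNA over control siRNA (y axis), against the average log2 CPM over 10 monosome libraries (x axis), for 28386 transcripts. Red points are the 637 rises and blue points the 963 falls at an adjusted p under 0.05, and the called changes approach 0 as abundance grows.

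The lengths of rises and falls over control did not carry over to the 4EHP background described below. Among well-covered transcripts the median length was 267 codons for the 455 rises and 360 codons for the 743 falls, against 331 codons for all 10443. Rises made up 5.38% of transcripts of up to 150 codons, 4.77% of those above 150 and up to 400, 3.69% of those above 400 and up to 1200, and 2.69% of those with more. Falls made up 6.37%, 6.67%, 8.03% and 7.05% of the same classes. In the 4EHP background the order was reversed, with medians of 381 codons for rises and 323.5 codons for falls, and with rises in 2.22%, 3.22%, 3.63% and 3.97% of the classes from short to long. The share of all monosome counts on transcripts of up to 150 codons was 22.2% and 22.1% in the control libraries. It was 22.2% and 23.1% in the ASCC3 libraries, of which only replicate 2 stood clear of the controls. Libraries without ASCC3 siRNA also lay above both controls, with 22.3% and 22.6% after 4EHP siRNA and 22.25% in ABCE1 replicate 2. The combined knockdown had 21.9% and 22.0%, and ABCE1 replicate 1 had 21.8%.

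Among the transcripts that rose, ENST00000302754.6 (348 codons) had 13.2 and 13.8 CPM in the control monosome libraries and 31.8 and 37.6 CPM in the ASCC3 libraries. The groups did not overlap, and the log2 change came to 1.41 (SE 0.16, edgeR adjusted p = 1.37e-09). ENST00000224784.10 (378 codons) had 27.7 and 33.8 CPM in the control and 76.9 and 76.5 CPM after ASCC3 siRNA. That is 1.32 on the log2 scale (SE 0.12, edgeR adjusted p = 5.38e-13). These were the largest rises among well-covered transcripts whose ASCC3 and control libraries did not overlap.

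The largest falls under the same conditions were steeper, and the longer of the 2 transcripts may be the siRNA target, which was not identified. ENST00000369162.7 (2203 codons) had 87.3 and 77.7 CPM in the control and 10.6 and 13.8 CPM after ASCC3 siRNA. Both ASCC3 libraries lay far below both controls. On the log2 scale the change was -2.67 (SE 0.15, edgeR adjusted p = 4.45e-22). ENST00000216034.6 (143 codons) had 87.0 and 91.8 CPM in the control and 15.3 and 18.7 CPM after ASCC3 siRNA, -2.33 on the log2 scale (SE 0.13, edgeR adjusted p = 3.64e-21). All 4 transcripts were called under every alternative tried for this comparison.

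**Figure D3:**
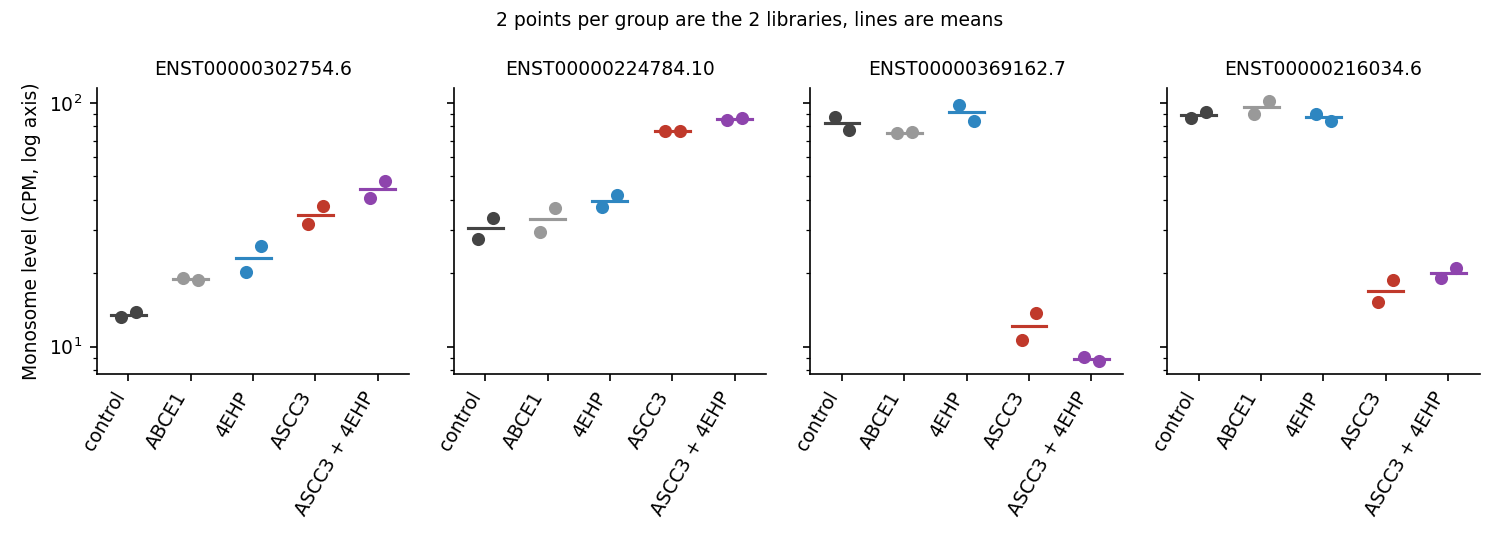
Monosome level in CPM (log axis) of the 2 largest rises and the 2 largest falls in each of the 10 monosome libraries, by siRNA (x axis). Points are libraries and lines are means of 2. For each transcript the 4 libraries with ASCC3 siRNA lie on the same side of the 6 without it.

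The number of monosome calls depended on the libraries and the tool. Leaving out ASCC3 replicate 2 left 474 calls, leaving out control replicate 1 left 855 and leaving out control replicate 2 left 921, and DESeq2 called 654 (249 rises and 405 falls). Without a filter on low counts the split moved to 433 rises and 1187 falls.

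The same siRNA was also given on top of 4EHP siRNA, in 4 monosome libraries that share no library with the comparison above. In that background 504 transcripts rose (1.78%) and 918 fell (3.23%), 5.01% of 28386 in all. Of the 637 rises over control, 549 (86.2%) had the same sign there and 174 were called in the same direction, which is 27.3% of the first list and 34.5% of the second. Of the 963 falls, 930 (96.6%) had the same sign and 477 were called again, 49.5% of the first list and 52.0% of the second. No fall became a called rise, and 9 rises became called falls. The median log2 fold change in the second background was 0.28 for the rises and -0.39 for the falls. Without control replicate 1, 102 rises and 359 falls were called in both backgrounds, and without ASCC3 replicate 2, 52 rises and 214 falls. DESeq2 called 67 rises and 249 falls in both.

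The same comparison can be read from the single libraries. Both libraries of the combined knockdown lay above both 4EHP libraries for 438 of the 637 rises (68.8%), against 23.4% of all transcripts tested, and below them for 819 of the 963 falls (85.0%), against 22.9%. All 4 libraries with ASCC3 siRNA lay above all 6 without it for 316 rises (49.6%, against 3.96% of all transcripts), and below for 665 falls (69.1%, against 5.2%). The last shares include the libraries that chose the transcripts and are descriptions. Across the 10443 well-covered transcripts, fold changes in the 2 backgrounds had a Pearson correlation of 0.70, also a description, since transcripts are not independent replicates. In the 4EHP background, the count of 1422 calls fell to 665 without 4EHP replicate 1, 738 without 4EHP replicate 2 and 746 without replicate 2 of the combined knockdown. DESeq2 called 560.

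**Figure D4:**
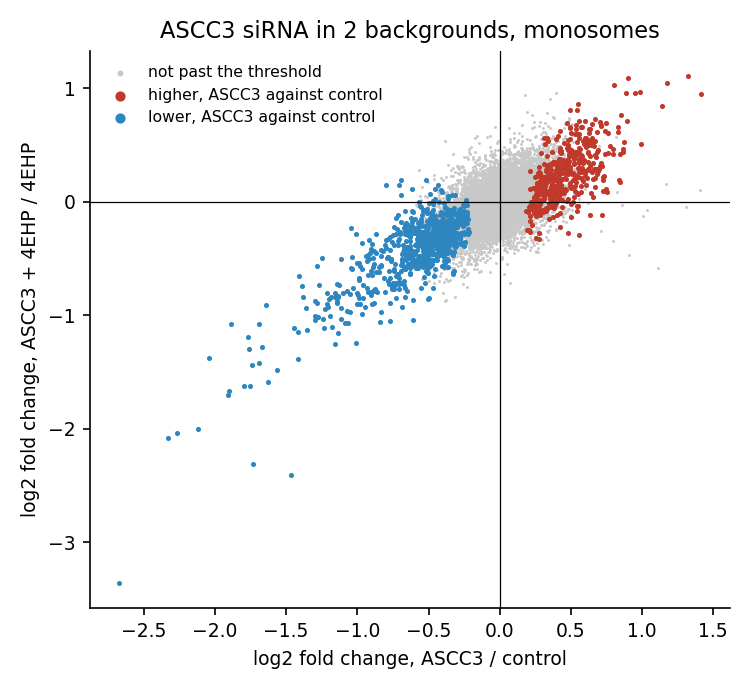
Log2 fold change of monosome footprints after ASCC3 siRNA in 2 backgrounds, over control siRNA (x axis) and over 4EHP siRNA (y axis), for 10443 transcripts whose average log2 CPM was at least 4. Red and blue points are rises and falls called over control. Most of the called points lie in the lower left and upper right quadrants, with a Pearson correlation of 0.70 over all points.

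The 4 transcripts described above moved the same way on top of 4EHP siRNA. ENST00000369162.7 fell by 3.35 (edgeR adjusted p = 4.83e-29) and ENST00000216034.6 fell by 2.08 (edgeR adjusted p = 3.46e-22) on the log2 scale. ENST00000224784.10 rose by 1.11 (edgeR adjusted p = 2.62e-11) and ENST00000302754.6 rose by 0.95 (edgeR adjusted p = 7.39e-07).

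Whether the response to ASCC3 siRNA differed with 4EHP siRNA was tested directly as an interaction. It passed the threshold for 58 transcripts (0.204%), of which 56 responded less positively with 4EHP siRNA (0.197%) and 2 more positively (0.00705%). The 56 lay in 28 separate stretches of the transcript list, so several may belong to 1 gene. They were mostly abundant and short. Of them, 49 reached an average log2 CPM of 8, and the median length of the 56 was 127 codons. In the length classes used above, 45 of the 56 had up to 150 codons. These were 2.22% of well-covered transcripts of that class, against 0.225%, 0.0550% and 0% in the longer classes. A window of 100 to 150 codons, which surrounds the observed median, held 36 of the 56 (64.3%). It held 18.2% of the 589 tested transcripts that reached a log2 CPM of 8, which not all of the 56 did. The contrast in this window is a description. The median of the 56 was 0.21 without 4EHP siRNA and -0.25 with it. In 54 of them the fold change was positive without 4EHP siRNA, and in 50 it was negative with it, with 30 called in the former comparison and 36 in the latter.

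By library, the median monosome level of the 56 transcripts was 777 and 767 CPM in the control, 854 and 898 CPM after ASCC3 siRNA, 857 and 885 CPM after 4EHP siRNA, and 771 and 793 CPM after both. Either siRNA alone thus stood above the control, and the combination lay near it. The values were used to choose these transcripts and are a description. Their median RNA level was 482 and 511 CPM in the control, 410 and 356 CPM after ASCC3 siRNA, 585 and 509 CPM after 4EHP siRNA and 430 and 456 CPM after both, so RNA was lower in the ASCC3 libraries while footprints were higher. Without control replicate 2, 24 transcripts passed the interaction test.

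Sets of transcripts chosen by disome footprints in other libraries of the study were followed next. In the other arm of the study, cells made wild-type eRF1, the factor that recognises stop codons, or a mutant that the labels call AAQ, each tagged and induced with tetracycline at 0.2 µg/ml for 48 h. No tetracycline is recorded for the cells without tagged protein. In 587 transcripts the AAQ line had more disome footprints than the wild-type line in the input lysate. After ASCC3 siRNA, 69 of these gained monosome footprints (11.8%) and 42 lost them (7.16%), against 4.25% and 6.02% of the 10908 transcripts that could have entered the set. In the 4EHP background the balance was different, with 15 rises (2.56%) and 66 falls (11.2%), against 3.25% and 5.95%. The medians were 0.02 and -0.05. The interaction was negative and called for 30 of the 587 (5.11%, against 0.477%). These 30 were also 53.6% of the 56 interaction transcripts, while 36.3% of tested transcripts whose average log2 CPM was at least 8 belonged to the set.

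The 260 transcripts whose disome footprints were pulled down with AAQ eRF1 showed 31 monosome rises (11.9%) and 12 falls (4.62%) after ASCC3 siRNA, against 4.03% and 5.71% of the 12050 transcripts that could have entered. In the 4EHP background they showed 5 rises (1.92%) and 24 falls (9.23%), against 3.07% and 5.53%. The 66 whose disomes were pulled down with wild-type eRF1 showed 0 rises and 1 fall over control and 0 rises and 2 falls over 4EHP, against the same shares.

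In disomes over control, which rest on the lone ASCC3 library, these sets held more falls than rises. In both AAQ sets the shares of rises and of falls were above those of all that could have entered. Of the 562 tested transcripts with more disomes in the AAQ line, 5 gained disomes (0.89%) and 11 lost them (1.96%) over control, against 0.278% and 0.569%, with a median of -0.06. Of the 251 tested from the AAQ pulldown, 3 gained (1.195%) and 9 lost them (3.59%), against 0.307% and 0.555%, with a median of -0.11. Of the 54 from the wild-type pulldown, 0 gained and 2 lost them (3.70%), against the same shares. Over 4EHP the AAQ line set gave 14 disome rises (2.49%) and 59 falls (10.5%), against 1.38% and 3.62%, and the AAQ pulldown set gave 9 (3.59%) and 26 (10.4%), against 1.41% and 3.44%. The wild-type pulldown set gave 1 disome rise (1.85%) and 8 falls (14.8%) over 4EHP, against 1.41% and 3.44%. The 3 sets hold shorter coding sequences, with medians of 193, 158 and 147.5 codons against 327 to 340 for all that could have entered, and they were not matched on abundance. The part of length and abundance in these counts was not tested.

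The ratio of disome to monosome footprints in the input lysates of cells with wild-type tagged eRF1 and of cells without tagged protein gave a further grouping. Among the 686 transcripts in the top 10% of this ratio, 65 gained monosome footprints (9.48%) and 45 lost them (6.56%). Among those in the bottom 10%, 18 gained (2.63%) and 90 lost them (13.2%). All 6850 ranked transcripts gave 4.96% and 9.12%. In the 4EHP background the top 10% gave 49 rises and 54 falls and the bottom 10% gave 5 rises and 80 falls. These are 7.14% and 7.87% at the top and 0.731% and 11.7% at the bottom, against 3.56% and 9.07% of all ranked. In disomes over control the top gave 1 rise and 4 falls among 602 tested (0.166% and 0.665%). The bottom gave 6 rises and 6 falls among 648 tested (0.926% each). The shares of all 6548 ranked transcripts tested in disomes were 0.305% and 0.718%. Median log2 fold changes of monosomes over control were 0.05 at the top, -0.08 at the bottom and -0.02 over all ranked. The median coding length was 398.5 codons at the top and 212 codons at the bottom, against 377 codons for all ranked. The part of length in these counts was not tested.

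The second readout, disome footprints, rested on a lone ASCC3 library, which was assumed to vary like the other groups. Of 12437 transcripts tested, 28 rose (0.225%) and 55 fell (0.442%), 0.667% in all, at an edgeR adjusted p under 0.05. The median log2 fold change was 1.16 for the rises and -1.21 for the falls. DESeq2 called 0 rises and 5 falls. Leaving out control replicate 1 left 6 rises and 21 falls, and leaving out control replicate 2 left 7 rises and 27 falls, 27 and 34 calls. Without a filter on low counts 36 were called, 2 rises and 34 falls. Of the 28 rises, 22 had the same sign in monosomes and 12 were called there. Of the 55 falls, 52 had the same sign in monosomes and 36 were called. Of all 28386 transcripts tested in monosomes, 2.24% were called higher and 3.39% lower.

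Disomes of the combined knockdown against 4EHP, from 4 libraries with replicates on both sides, gave 152 rises (1.22%) and 324 falls (2.61%), 3.83% in all. Of the 28 disome rises over control, 25 had the same sign in this comparison and 5 were called (17.9% of the first list, 3.29% of the second). Of the 55 falls, 50 had the same sign and 30 were called (54.5% and 9.26%). Across 5437 transcripts the disome fold changes of the 2 backgrounds had a Pearson correlation of 0.32. The count of 476 dropped to 149 and 258 without 4EHP replicates 1 and 2, and to 296 and 186 without replicates 1 and 2 of the combined knockdown, and DESeq2 called 121.

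Most transcripts called in monosomes had the same sign in disomes. Of the 637 monosome rises, 471 were tested in disomes, of which 369 had the same sign and 12 were called, with a median of 0.28. Of the 963 falls, 762 were tested, 633 had the same sign and 36 were called, with a median of -0.48. Of all 12437 transcripts tested in disomes, 0.225% were called higher and 0.442% lower. The share of all transcripts with the same sign in monosomes and disomes is not given here. None of the monosome calls was called in the opposite direction, where only 83 disome calls were made in all. ENST00000369162.7 had 54.0 and 57.5 CPM in control disomes and 8.20 CPM in the ASCC3 library, and fell by 2.74 (SE 0.58, edgeR adjusted p = 0.00215). ENST00000216034.6 had 79.2 and 68.4 CPM in the control and 18.5 CPM after ASCC3 siRNA, and fell by 2.01 (SE 0.45, edgeR adjusted p = 0.00589). ENST00000224784.10 went the other way, from 20.2 and 16.4 CPM to 55.4 CPM, 1.55 on the log2 scale (SE 0.43, edgeR adjusted p = 0.0438). ENST00000302754.6 had 13.7 and 27.4 CPM in control disomes and 28.7 CPM after ASCC3 siRNA, a log2 difference of 0.61 that did not pass the threshold (edgeR adjusted p = 0.73).

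Among transcripts whose average log2 CPM in disomes was at least 5, the 2 largest rises and the 2 largest falls lay on coding sequences of 64 to 119 codons. ENST00000582463.5 (68 codons) had 28.1 and 12.3 CPM in control disomes and 84.1 CPM in the ASCC3 library, 1.92 on the log2 scale (SE 0.37, edgeR adjusted p = 0.000342). Its monosome footprints differed by 0.24 (SE 0.08, edgeR adjusted p = 0.0681). In the combined knockdown its disome libraries held 65.2 and 24.3 CPM, a spread that left the change over 4EHP at 0.87 (edgeR adjusted p = 0.182). ENST00000486134.1 (71 codons) had 28.8 and 23.3 CPM in control disomes and 77.9 CPM in the ASCC3 library, a change of 1.54 (SE 0.37, edgeR adjusted p = 0.0136). Its disomes held 29.1 and 34.8 CPM in the combined knockdown and 27.3 and 22.2 CPM after 4EHP siRNA, a log2 difference of 0.36 that did not pass the threshold (edgeR adjusted p = 0.684). Its monosome footprints rose by 0.49 over control (edgeR adjusted p = 0.0162) and by 0.45 over 4EHP (edgeR adjusted p = 0.0297). This disome call and that of ENST00000582384.1 below were each lost under 4 of 7 alternatives.

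ENST00000493669.2 (64 codons) had 44.7 and 49.2 CPM in control disomes and 4.10 CPM in the ASCC3 library, where it rested on 2 counts. The ratio was 0.0887, with a 95% counting interval of 0.0106 to 0.329. In the 4EHP background its disomes fell by 1.60 on the log2 scale (edgeR adjusted p = 0.000556). ENST00000582384.1 (119 codons), again with 2 counts, had 31.7 and 35.6 CPM in control disomes and 4.10 CPM in the ASCC3 library, a ratio of 0.124 (0.0148 to 0.466). Its disomes fell by 1.46 in the 4EHP background (edgeR adjusted p = 0.00129) and its monosome footprints fell by 1.24 over control (edgeR adjusted p = 1.78e-08). The intervals cover counting error only.

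Disomes of the lone ASCC3 library shifted slightly along coding length. Their median log2 fold change over control was -0.12, -0.05, 0.05 and 0.16 from the shortest to the longest class. A length bias of that library cannot be told apart from an effect of the siRNA. Transcripts of over 1200 codons held 5.04% and 5.02% of disome counts in the control and 5.61% in the ASCC3 library. The shares were 5.46% and 5.16% after 4EHP siRNA and 5.72% and 5.44% in the combined knockdown. The ASCC3 library thus lay above both controls and within the range of the combined knockdown. Both 4EHP libraries, without ASCC3 siRNA, also lay above both controls.

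A change of disomes beyond monosomes was tested in a joint fit. Of 25603 transcripts, 3 rose (0.0117%) and 10 fell (0.0391%), 0.0508% in all, against a median of -0.15 over all tested. ENST00000304043.10 (127 codons) had 895 and 962 CPM in control disomes, and its disomes fell by 1.21 on the log2 scale (edgeR adjusted p = 4.23e-08) while its monosome fold change was 0.00 (SE 0.07). The ratio fell by 1.31 (SE 0.19, edgeR adjusted p = 0.000103). Its disomes stood at 608 and 859 CPM in the combined knockdown and at 988 and 951 CPM after 4EHP siRNA. That log2 difference of -0.39 did not pass the threshold (edgeR adjusted p = 0.0581). ENST00000420536.1 (181 codons) had 421 and 368 CPM in control disomes and 172 CPM after ASCC3 siRNA, with a monosome change of -0.05, and its ratio fell by 1.26 (SE 0.22, edgeR adjusted p = 0.00312). It also lost disomes in the 4EHP background, by 0.97 (edgeR adjusted p = 6.80e-08).

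The 3 rises of the ratio were ENST00000545215.5 (46 codons, 1.39, edgeR adjusted p = 0.0464), ENST00000372695.6 (121 codons, 1.28, edgeR adjusted p = 0.0464) and ENST00000519637.1 (133 codons, 2.91, edgeR adjusted p = 0.0281), the last named after its value was seen. ENST00000545215.5 had 42.5 and 38.3 CPM in control disomes and 92.3 CPM in the ASCC3 library, while its monosome footprints fell by 0.33 on the log2 scale (edgeR adjusted p = 0.0382). Its disomes held 56.9 and 33.2 CPM in the combined knockdown and 48.6 and 61.8 CPM after 4EHP siRNA, so these groups overlapped (log2 difference -0.33, edgeR adjusted p = 0.634). ENST00000519637.1 had 9.36 and 4.10 CPM in control disomes, 34.9 CPM in the ASCC3 library, and 25.0 and 19.4 CPM in the combined knockdown. After 4EHP siRNA it had 19.7 and 2.47 CPM, so these groups overlapped (log2 difference 0.73, edgeR adjusted p = 0.462). ENST00000372695.6 had 49.0 and 47.9 CPM in control disomes, 123 CPM in the ASCC3 library, and 54.1 and 52.6 CPM in the combined knockdown. After 4EHP siRNA it had 38.0 and 51.9 CPM, a log2 difference of 0.29 that did not pass the threshold (edgeR adjusted p = 0.684). The calls of ENST00000545215.5 and ENST00000372695.6 were each lost under 9 of 11 alternatives, and that of ENST00000519637.1 under 4. DESeq2 called 46 transcripts in this test. The count was 7 and 29 without control disome replicates 1 and 2, 1 and 4 without control monosome replicates 1 and 2, and 20 and 2 without ASCC3 monosome replicates 1 and 2.

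Footprints were then set beside RNA from cells with the same siRNA, to separate a change of ribosome load from a change of RNA. A lower RNA signal in such bulk libraries can stem from fewer molecules per cell or from fewer cells that carry them, which cannot be told apart. Of the 963 falls, 860 had the same sign in RNA and 394 were called lower, with a median of -0.38, and none was called higher. Of all 28384 transcripts tested in both, 2.58% were called higher in RNA and 4.68% lower. Of the 637 rises, 402 had the same sign, 77 were called higher and 56 were called lower, with a median of 0.11. Across 10443 transcripts the RNA and monosome fold changes had a Pearson correlation of 0.40.

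Of the named transcripts, ENST00000216034.6 fell in RNA by as much as in footprints, from 100.9 and 113 CPM to 19.4 and 16.2 CPM, a log2 change of -2.59. Its translational efficiency, the footprint change minus the RNA change, moved by 0.23 (SE 0.22, edgeR adjusted p = 0.817). ENST00000224784.10 rose in RNA from 9.44 and 9.63 CPM to 26.2 and 30.3 CPM, a log2 change of 1.56. ENST00000302754.6 had 5.29 and 6.76 CPM in control RNA and 8.66 and 7.70 CPM after ASCC3 siRNA, a log2 difference of 0.43 (edgeR adjusted p = 0.157). Its translational efficiency change of 0.95 did not pass the threshold (SE 0.26, edgeR adjusted p = 0.162). In the 4EHP background its RNA was higher with ASCC3 siRNA, at 20.8 and 19.0 CPM against 8.44 and 7.89 CPM.

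ENST00000369162.7 fell further in footprints than in RNA. Because it fell in all libraries with ASCC3 siRNA, and the siRNA target is not identified, it may be that target, which also bears on its monosome and disome values. Its RNA went from 184 and 185 CPM to 84.5 and 79.3 CPM, a log2 change of -1.17, and its translational efficiency fell by 1.53 (SE 0.20, edgeR adjusted p = 6.34e-05). ENST00000379238.5 (1120 codons) kept level RNA, with 57.5 and 50.5 CPM in the control and 54.5 and 52.4 CPM after ASCC3 siRNA. Its monosome footprints fell by 1.18 (SE 0.16) over control and by 1.11 over 4EHP. Its translational efficiency fell by 1.197 (SE 0.22, edgeR adjusted p = 0.00364), a call lost under 3 of 14 alternatives.

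Over 35883 transcripts, translational efficiency rose for 85 (0.237%) and fell for 8 (0.0223%), 0.259% in all, against a median of -0.04. The rises lay in 55 separate stretches of the transcript list and the falls in 7. The rises had a median length of 166 codons and the falls of 897 codons, against 200 for all. Of the 85, 53 were also among the 637 monosome rises, and 7 of the 8 were among the monosome falls. Of all transcripts tested in monosomes, 2.24% rose and 3.39% fell. The overlap is in part built in, since translational efficiency was computed from the same ASCC3 and control monosome libraries. The 85 had median monosome levels of 730 and 753 CPM in the control and 786 and 800 CPM after ASCC3 siRNA. Their median RNA levels were 779 and 810 CPM in the control and 584 and 531 CPM after ASCC3 siRNA, so the RNA differed more than the footprints did. These ASCC3 and control levels were used to choose the 85 and are a description. In RNA, the combined knockdown had 632 and 646 CPM and 4EHP siRNA had 816 and 711 CPM.

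Among well-covered transcripts the largest rise was that of ENST00000640290.1 (124 codons), which gained 1.44 (SE 0.24, edgeR adjusted p = 0.00226), with RNA of 27.9 and 30.2 CPM in the control and 13.3 and 14.1 CPM after ASCC3 siRNA and a monosome rise of 0.37. ENST00000594182.1 (100 codons) gained 1.39 (SE 0.23, edgeR adjusted p = 0.00118), with an RNA change of -0.85 and a monosome rise of 0.56.

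RNA replicates differed from each other with coding length, with a Spearman correlation of -0.43 across transcripts for ASCC3 and 0.05 for the control, and with SDs of 0.269 and 0.117 in log2 CPM. The part of this spread in the translational efficiency calls was not tested. The calls numbered 42 and 28 without control monosome replicates 1 and 2, 32 without ASCC3 monosome replicate 2, 50 and 28 without control RNA replicates 1 and 2, and 147 and 54 without ASCC3 RNA replicates 1 and 2. DESeq2 called 147.

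**Figure D5:**
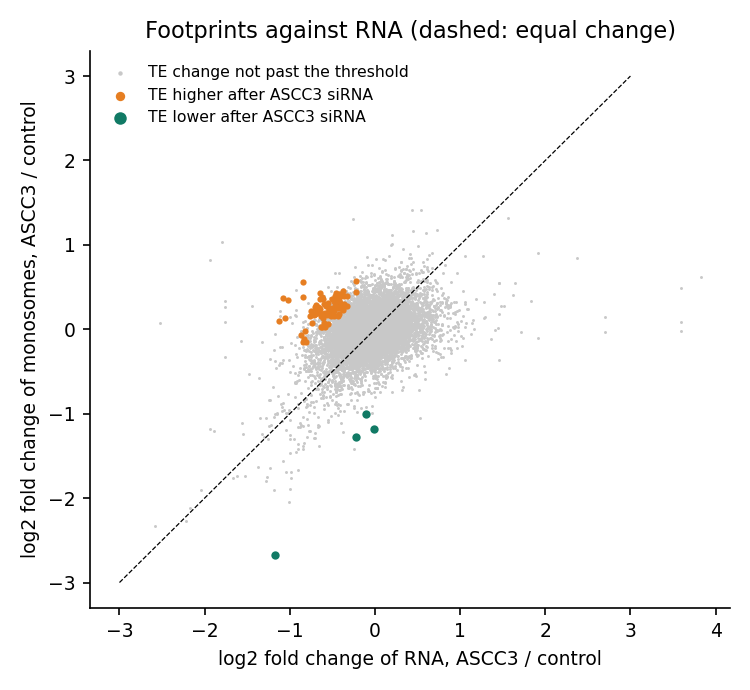
Log2 fold change of monosome footprints (y axis) against that of RNA (x axis), ASCC3 siRNA over control siRNA, for transcripts whose average log2 CPM was at least 4 in monosomes. Orange and green points are higher and lower translational efficiency at an adjusted p under 0.05, and the dashed line marks equal change. The 84 orange points lie left of 0 on the RNA axis, and 4 of the 8 falls are plotted.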

How the data were processed

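The authors deposited, for each library, whole-number counts per Ensembl transcript beside a length read here as codons. Per the submitters' processing notes, STAR 2.7.0a and UMI-tools 1.1.1 were used with hg38. Which counter and annotation release were used is not given in the sources used here. Groups came from the labels. Isoforms were joined where, within 40 lines, scaled replicate differences correlated above 0.7 (at least 500 counts, 2 components removed). The test was edgeR 4.0.16 under R 4.3.3 (quasi-likelihood F test, TMM, expression filter at a minimum count of 10, Benjamini-Hochberg, two-sided), with all groups of an assay in a fit. Alternatives included DESeq2 1.42.0. The rule named transcripts past an adjusted p of 0.05, without overlap of libraries, by fold change, at an average log2 CPM of at least 4 (5 in disomes), at most 2 each way because no names could be attached. The libraries, lists and tests were chosen with earlier results of these data known. Footprint replicates differed beyond sampling noise (chi-square over degrees of freedom 1.32 to 1.79). Tests and joining were tested on simulated data.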

Additional observations from a re-analysis of the deposited data

Results flagged for a closer look

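The response of monosome footprints to ASCC3 siRNA differed with 4EHP siRNA for 58 transcripts in an edgeR test of the interaction over all 10 monosome libraries, and 1701 had an unadjusted p under 0.05. The following 4 transcripts had the largest differences each way and were named after their values were seen. ENST00000368222.8 (139 codons) had an interaction of 0.77 (SE 0.18, edgeR adjusted p = 0.0412), from changes of 0.17 over control and 0.94 over 4EHP. ENST00000262460.5 (197 codons) had an interaction of 0.74 (SE 0.17, edgeR adjusted p = 0.0356) because it fell less with 4EHP siRNA, by 0.91, than without it, by 1.64. ENST00000547157.1 (56 codons) had an interaction of -0.75 (SE 0.17, edgeR adjusted p = 0.0328), from 0.48 over control and -0.27 over 4EHP. ENST00000216117.9 (289 codons) had an interaction of -0.74 (SE 0.16, edgeR adjusted p = 0.0114), from 0.63 and -0.11. Its monosome level was 32.0 and 28.8 CPM in the control and 49.05 and 46.4 CPM after ASCC3 siRNA. It was already higher after 4EHP siRNA alone, at 81.9 and 82.1 CPM, and was 79.7 and 73.6 CPM after both. The call of ENST00000216117.9 was lost under 4 of 13 alternatives, and those of the other transcripts under 8 of 13 each.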

How the results depend on the processing

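No named transcript changed direction under any alternative tried. Of their recomputed values, 238 kept their side of the threshold, 72 lost it and 1 gained it. Calls changed as follows. DESeq2 called 654 transcripts in monosomes over control, 5 in disomes over control, 560 and 121 in monosomes and disomes over 4EHP, 147 for translational efficiency and 46 for disomes over monosomes. With isoforms not joined the same comparisons gave 4392, 249, 3875, 1182, 387 and 42, and the interaction 188. Without a low-count filter 36 disome calls were made over control, 169 disome calls over 4EHP and 185 for translational efficiency, and with only the groups of the contrast 174 for the last. Leaving out 1 library in turn gave 474 to 1388 calls in monosomes and 27 to 34 in disomes over control, 665 to 1077 and 149 to 296 over 4EHP, 24 to 67 for the interaction, 28 to 147 for translational efficiency and 1 to 29 for disomes over monosomes. Where this left an arm with 1 library, that library was assumed to vary like the other groups. The cause of these differences was not tested. Same-numbered monosome replicates correlated in their deviations at 0.0833 for control and ASCC3, 0.0356 and 0.0494 for control with 4EHP and combined, 0.0745 for control with ABCE1, and 0.123 to 0.231 for the 6 pairs of groups without the control. Not every pair passed 0.1, and the labels tie the numbers to no shared culture, so the numbers were not taken as pairs. With a replicate block, 2021 monosome calls were made over control, 1862 over 4EHP, 536 in disomes over 4EHP, 131 for the interaction and 111 for translational efficiency. No paired analysis was possible because the lone ASCC3 disome library carries no replicate number, for disomes over control and disomes over monosomes. A version with 1 transcript a gene was not run, since identifiers matched no gene. The ASCC3 disome library held 513330 counts and has no replicate.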
